A study of Homo sapiens with 4 samples.

Results

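The 10 genes described here encode enzymes that make ceramide, the core lipid of the sphingolipids, and convert it into its main products. They are SPTLC1, SPTLC2, CERS2, CERS5, CERS6, DEGS1, UGCG, SGMS1, SGMS2 and SPHK1, chosen by name for their place in the pathway and matched on gene name. All 10 were found in the tables of both cell lines, out of 32485 genes listed in either table. RNA was sequenced from human bladder cancer cell lines with and without knockdown of SCD1 (gene symbol SCD), the stearoyl-CoA desaturase that turns saturated into monounsaturated fatty acyl-CoA. The groups were SCD1 knockdown cells of UMUC3 (shSCD1), non-targeted UMUC3 cells labelled wild type (shNT), SCD1 knockdown cells of SW780 and non-targeted SW780 cells. The knockdown was made with lentivirus, and the labels give neither the number of hairpins nor the number of cultures. UMUC3 was grown in MEM and SW780 in DMEM, so the lines also differed in medium. Each of the 4 groups had 1 library, so no difference within a line has a replicate check and none was tested.

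Sphingolipid synthesis starts when serine palmitoyltransferase joins serine to palmitoyl-CoA in the endoplasmic reticulum. Ceramide synthases attach a fatty acyl chain to the sphingoid base, and a desaturase turns the resulting dihydroceramide into ceramide. Ceramide is then built into sphingomyelin or glucosylceramide in the Golgi, or broken down to sphingosine, which sphingosine kinases phosphorylate to a signalling lipid.

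The recovered read totals were 32540576 and 22818368 in the shSCD1 and shNT libraries of UMUC3, and 25549737 and 34087871 in those of SW780. Levels are given as counts per 1000000 of those reads (CPM). Ratios are log2((shSCD1 CPM + 1)/(shNT CPM + 1)), which understates the change of low genes, and folds are of CPM without the added 1. The 95% intervals cover counting error only. SCD itself had 59.6 CPM in shSCD1 and 264 CPM in shNT of UMUC3, and 92.1 CPM in shSCD1 and 592 CPM in shNT of SW780. The column headers name only a first and a second library. The second was read as shSCD1 from the table's name and the order of the libraries, and every direction below would turn round under the opposite reading. SCD, the targeted gene, was lower in the second library of both lines, 4.44-fold in UMUC3 and 6.43-fold in SW780. Of 19 urothelial and epithelial markers, 16 reached 1 CPM in SW780, where all 19 were listed. In UMUC3, 14 were listed and 6 reached 1 CPM. KRT19, UPK1B and GRHL3 had no reads in UMUC3, which allows up to 0.0922 CPM in shSCD1 and 0.131 CPM in shNT (3 reads). EPCAM, CDH1, ELF3, UPK3A and KRT14 were not listed for UMUC3, so their levels there are not known. Over the urothelial and epithelial markers listed, the summed level was 264 CPM in shSCD1 and 536 CPM in shNT of UMUC3. In SW780 it was 10572 CPM in shSCD1 and 12901 CPM in shNT. The 4 mesenchymal markers summed to 2557 CPM in shSCD1 and 3112 CPM in shNT of UMUC3, and to 804 CPM in shSCD1 and 301 CPM in shNT of SW780. Most of the sum was VIM in UMUC3 (2254 CPM in shSCD1, 2794 CPM in shNT) and FN1 in SW780 (734 and 280 CPM). Of these markers ZEB1 alone was higher in shSCD1 of UMUC3, 242 against 233 CPM, and it stayed under 1 CPM in SW780. Fibroblast markers summed to 243 CPM in shSCD1 and 175 CPM in shNT of SW780 and stayed under 2 CPM in UMUC3, and in SW780 the sum came from COL3A1 and LUM, with 0 reads of DCN and PDGFRB in both libraries. Endothelial markers summed to 5.64 and 5.52 CPM in shSCD1 and shNT of SW780 and to under 1 CPM in UMUC3. Blood markers summed to under 1 CPM in every library. Of the 4 blood markers, 1 was listed for UMUC3 and 3 for SW780, and the fibroblast marker DCN was not listed for UMUC3. The part of these marker differences in the results below was not tested. In bulk libraries, fewer cells of a type and less RNA per cell cannot be told apart.

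Directions differed among the 10 genes and between the lines. DEGS1, the dihydroceramide desaturase, and SPHK1, a sphingosine kinase, were higher in the shSCD1 library of both lines. SPTLC1 and CERS6 were higher in shSCD1 of UMUC3 and lower in shSCD1 of SW780, and UGCG went the other way. CERS2 and CERS5 had intervals that held 1 in both lines. None of the 10 genes reached a 2-fold difference in either line, where 4.64% of the 14063 UMUC3 genes and 2.54% of the 12880 SW780 genes with at least 1 CPM did.

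The promoters of the 4 genes with the largest ratios in size in either line are shown because 2 of them (DEGS1 and SPHK1) had the same direction in both lines and the other pair (UGCG and SPTLC1) did not. Each is the 250 bases before the RefSeq transcription start in GRCh38.p14, written 5′ to 3′ on the gene's strand, with matches of the GC box GGGCGG on either strand in capitals. For DEGS1 and SPHK1, which have more than 1 RefSeq start, the start nearest to that of the principal transcript in GENCODE 29 was used.
DEGS1 (chr1:224182990-224183239, plus strand): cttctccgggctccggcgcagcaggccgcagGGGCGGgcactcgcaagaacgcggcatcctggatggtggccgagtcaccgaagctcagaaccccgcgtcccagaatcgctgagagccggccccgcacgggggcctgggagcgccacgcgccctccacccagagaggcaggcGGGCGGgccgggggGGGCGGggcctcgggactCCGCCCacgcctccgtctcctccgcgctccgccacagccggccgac
SPHK1 (chr17:76384359-76384608, plus strand): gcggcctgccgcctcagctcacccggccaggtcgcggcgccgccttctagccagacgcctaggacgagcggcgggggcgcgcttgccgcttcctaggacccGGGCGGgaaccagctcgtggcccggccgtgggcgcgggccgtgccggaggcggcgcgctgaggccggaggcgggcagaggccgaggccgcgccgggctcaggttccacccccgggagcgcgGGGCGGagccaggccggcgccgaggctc
UGCG (chr9:111896564-111896813, plus strand): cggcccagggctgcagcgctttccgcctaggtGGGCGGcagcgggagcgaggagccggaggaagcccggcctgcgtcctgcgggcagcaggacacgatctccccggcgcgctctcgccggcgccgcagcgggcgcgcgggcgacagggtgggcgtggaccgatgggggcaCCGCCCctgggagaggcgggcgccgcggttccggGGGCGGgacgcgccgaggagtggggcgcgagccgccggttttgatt
SPTLC1 (chr9:92115414-92115663, minus strand): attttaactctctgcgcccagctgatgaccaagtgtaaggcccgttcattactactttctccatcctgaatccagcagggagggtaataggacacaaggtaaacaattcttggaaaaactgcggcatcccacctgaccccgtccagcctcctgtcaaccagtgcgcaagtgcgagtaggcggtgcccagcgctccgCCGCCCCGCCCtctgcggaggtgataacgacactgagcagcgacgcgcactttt
The GC box occurred 4 times for DEGS1, 2 times for SPHK1, 3 times for UGCG and 2 times for SPTLC1, where the matches overlap. At least 1 match was held by 42.6% of all 35114 windows of this length. The CCAAT box (CCAAT, in 32.0% of windows), the E-box CACGTG (6.35%) and the sterol regulatory element TCACNCCAC (0.883%), searched on both strands, matched none of these 4 windows. Of the 10 genes, 9 had a RefSeq window, all but CERS2.

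**Figure D1:**
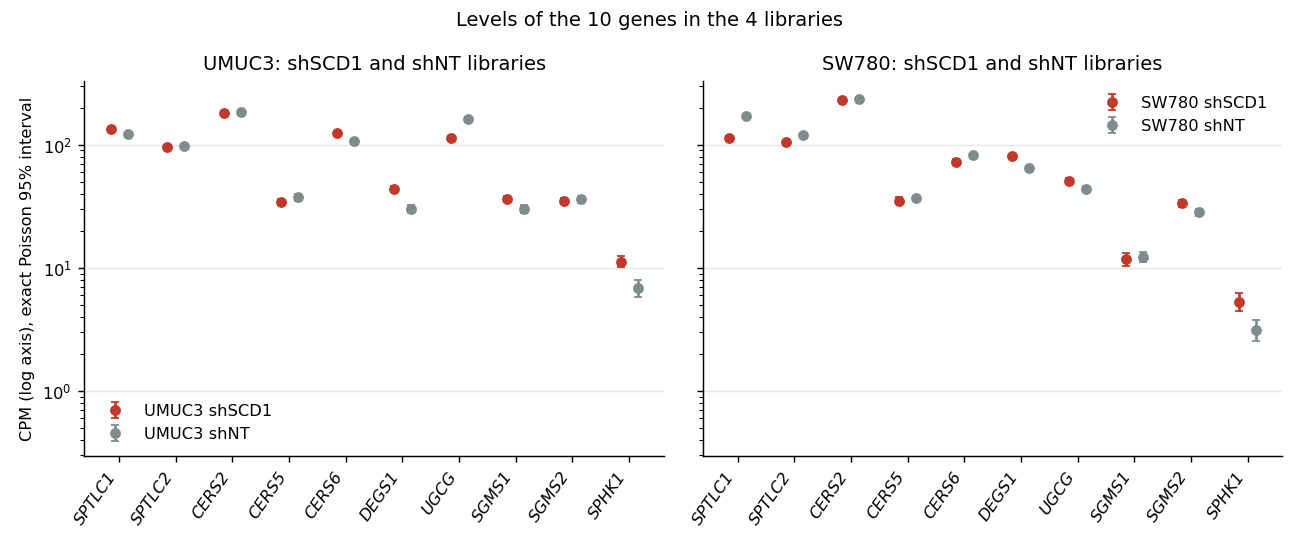
CPM of the 10 genes (log axis) in the shSCD1 (red) and shNT (grey) libraries of UMUC3 (left) and SW780 (right), with exact Poisson 95% intervals. The widest gaps are SPHK1, DEGS1 and UGCG in UMUC3 (11.2 against 6.84, 43.9 against 30.3 and 114 against 162 CPM) and SPTLC1 and SPHK1 in SW780 (113 against 171 and 5.32 against 3.11 CPM).

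Counted by whether the 95% counting interval of the fold excludes 1, 5 of the 10 genes were higher and 1 was lower in shSCD1 of UMUC3. The same count over the whole UMUC3 table, with the filter of 1 CPM, put 35.9% of genes on the higher and 29.6% on the lower side. In SW780, 4 of the 10 genes were higher and 3 lower in shSCD1, where 28.0% and 29.8% of all genes were. With 10 genes these counts are a description and no result about the pathway as a whole. By the 1.5-fold rule, 1 of the 10 genes (SPHK1) was higher in shSCD1 of UMUC3, where 10.1% of all genes were higher and 6.86% lower. In SW780, 1 gene was higher (SPHK1) and 1 lower (SPTLC1) by that rule, where 5.05% of all genes were higher and 3.7% lower. The median log2 ratio of the 10 genes was 0.05 in UMUC3, beside 0.04 for all genes, and -0.04 in SW780, beside -0.01 for all genes. Their summed level was 811 CPM in shSCD1 and 814 CPM in shNT of UMUC3, and 740 CPM in shSCD1 and 797 CPM in shNT of SW780. The plot over all genes places UGCG in the left flank of the UMUC3 distribution and SPTLC1 in that of SW780.

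**Figure D2:**
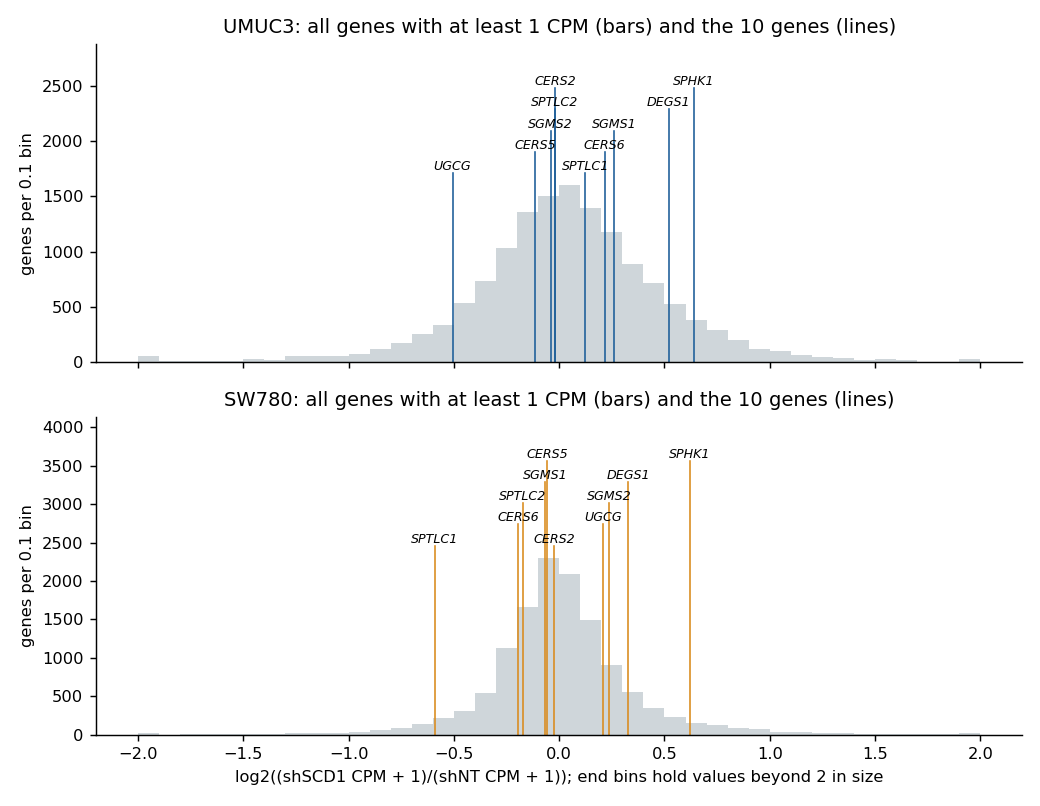
Number of genes (bars, bins of 0.1) by log2((shSCD1 CPM + 1)/(shNT CPM + 1)) in UMUC3 (above) and SW780 (below), with the 10 genes as labelled lines. The 10 genes run from -0.51 to 0.64 in UMUC3 and from -0.59 to 0.62 in SW780, inside the 2-fold bounds on both sides.

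SPTLC1 and SPTLC2 encode the large subunits of serine palmitoyltransferase, the enzyme of the first step. SPTLC1 lies on the minus strand of chromosome 9 (chr9:92000087-92115384, GRCh38, GENCODE 29). It had 133 CPM (4337 reads) in shSCD1 and 122 CPM (2791 reads) in shNT of UMUC3, a fold of 1.09 (95% interval 1.04 to 1.14). In SW780 it had 113 CPM (2894 reads) in shSCD1 and 171 CPM (5831 reads) in shNT, 1.51-fold lower in shSCD1 (1.44 to 1.58). SPTLC1 thus stood slightly above shNT in the UMUC3 knockdown library and well below it in the SW780 knockdown library, where only 3.66% of genes had a lower log2 ratio. The UMUC3 log2 fold less the SW780 log2 fold was 0.72 (0.62 to 0.81) for SPTLC1, counting error only. SPTLC2 lies on chromosome 14 (chr14:77505997-77616773, minus strand). It had 96.3 CPM in shSCD1 and 97.7 CPM in shNT of UMUC3, a fold of 0.986 (0.934 to 1.04). The SW780 libraries held 106 CPM in shSCD1 and 120 CPM in shNT, 1.13-fold lower in shSCD1 (1.08 to 1.19), and the difference between the lines was 0.16 on the log2 scale (0.05 to 0.26). Per kilobase of principal transcript, SPTLC1 made up 85.6% (85.1 to 86.2) of the summed SPTLC1 and SPTLC2 level in shSCD1 of UMUC3. In shNT of UMUC3 its share was 84.4% (83.6 to 85.1), so the intervals overlapped slightly. Overlap alone does not show that the UMUC3 shares were equal, and their difference was not tested. In SW780 its share was 82.2% (81.4 to 82.9) in shSCD1 and 86.0% (85.6 to 86.5) in shNT, so the ratio of the subunits shifted in SW780 beyond counting error. With the union of all exons as length the shares were lower, 60.1% in shSCD1 and 66.8% in shNT of SW780, in the same order.

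Among the other genes of this enzyme, 2 of 5 were higher and 1 lower by interval in shSCD1 of UMUC3, and 0 of 6 higher and 4 lower in shSCD1 of SW780. By the same count 35.9% of all genes were higher and 29.6% lower in UMUC3, and 28.0% higher and 29.8% lower in SW780. ORMDL1, a brake on the enzyme, had 73.2 CPM in shSCD1 and 50.9 CPM in shNT of UMUC3, a fold of 1.44 (1.34 to 1.54). Its SW780 level was 48.4 CPM in shSCD1 and 51.6 CPM in shNT, a log2 ratio of -0.09 with a fold interval that held 1. SPTSSB, a small activating subunit, had 1.57 CPM (40 reads) in shSCD1 and 10.4 CPM (354 reads) in shNT of SW780, 6.63-fold lower (4.77 to 9.44). SPTSSB had the lowest log2 ratio of all the other sphingolipid genes in SW780, -2.15. It is not among the genes listed for UMUC3, so the lines could not be compared in it. ORMDL1 thus differed beyond counting error in UMUC3 alone, and SPTSSB, like SPTLC1 and SPTLC2, was lower in shSCD1 of SW780. The rest of this list was named after its values were seen. SPTSSA was 1.43-fold higher (1.33 to 1.55) in shSCD1 of UMUC3, with an interval that held 1 in SW780. ORMDL2 was lower in shSCD1 of both lines, 1.29-fold in UMUC3 and 1.15-fold in SW780. ORMDL3 was 1.16-fold and SPTLC3 1.63-fold lower in shSCD1 of SW780, with intervals that held 1 in UMUC3.

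CERS2, CERS5 and CERS6 encode ceramide synthases that differ in the acyl chain they prefer. CERS2 takes very-long-chain acyl-CoA, and CERS5 and CERS6 take mainly palmitoyl-CoA, a saturated acyl-CoA on which SCD1 also acts. CERS2 (chr1:150960583-150975004, minus strand) had 182 CPM in shSCD1 and 185 CPM in shNT of UMUC3, a fold of 0.987 (0.949 to 1.03). In SW780 it had 230 CPM in shSCD1 and 234 CPM in shNT, a fold of 0.983 (0.950 to 1.02). The CERS2 intervals lay within about 5% of 1 in either line, for counting error under this scaling only. Over the settings tried, its log2 ratio in UMUC3 ran from -0.10 to 0.01. CERS5 (chr12:50129306-50167533, minus strand) had 34.5 CPM in shSCD1 and 37.4 CPM in shNT of UMUC3, a fold of 0.921 (0.842 to 1.01). The SW780 libraries held 35.2 CPM in shSCD1 and 36.6 CPM in shNT, a fold of 0.960 (0.880 to 1.05). CERS5 was thus slightly below shNT in both lines, within counting error. CERS6 (chr2:168455862-168775137, plus strand) had 124 CPM in shSCD1 and 106 CPM in shNT of UMUC3, 1.16-fold higher (1.11 to 1.22). Its SW780 level was 72.8 CPM in shSCD1 and 83.4 CPM in shNT, 1.15-fold lower (1.08 to 1.22). CERS6 was the ceramide synthase with opposite directions in the lines. The UMUC3 log2 fold less the SW780 log2 fold was 0.41 (0.30 to 0.53) for CERS6, beside 0.01 (-0.07 to 0.08) for CERS2 and -0.06 (-0.24 to 0.12) for CERS5.

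CERS2 was the most abundant of these 3 synthases per kilobase in every library. Its share of their summed level was 67.8% in shSCD1 and 68.8% in shNT of UMUC3, and 76.9% in shSCD1 and 75.8% in shNT of SW780. CERS6 took 16.2% in shSCD1 (15.7 to 16.8) and 14.0% in shNT (13.4 to 14.5) of UMUC3, and 8.57% in shSCD1 (8.17 to 8.97) and 9.51% in shNT (9.15 to 9.87) of SW780. The share of CERS6 therefore differed beyond counting error in both lines, in opposite directions. With the union of exons as length CERS6 took 27.8% in shSCD1 and 24.5% in shNT of UMUC3 and 15.5% in shSCD1 and 17.1% in shNT of SW780, in the same order. Exons of SETDB1 and AL590133.2 on the other strand together overlap those of CERS2 over 37.2% of its exonic length. AL590133.2 had 0 reads in both UMUC3 libraries, and SETDB1 had 1240 reads in shSCD1 and 1039 in shNT of UMUC3. Exons of CERS6 overlap CERS6-AS1 over 41.4%, and CERS6-AS1 had 0 reads in both UMUC3 libraries. Whether reads were counted by strand is not given in the sources used here, so reads of such antisense neighbours cannot be told apart.

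**Figure D3:**
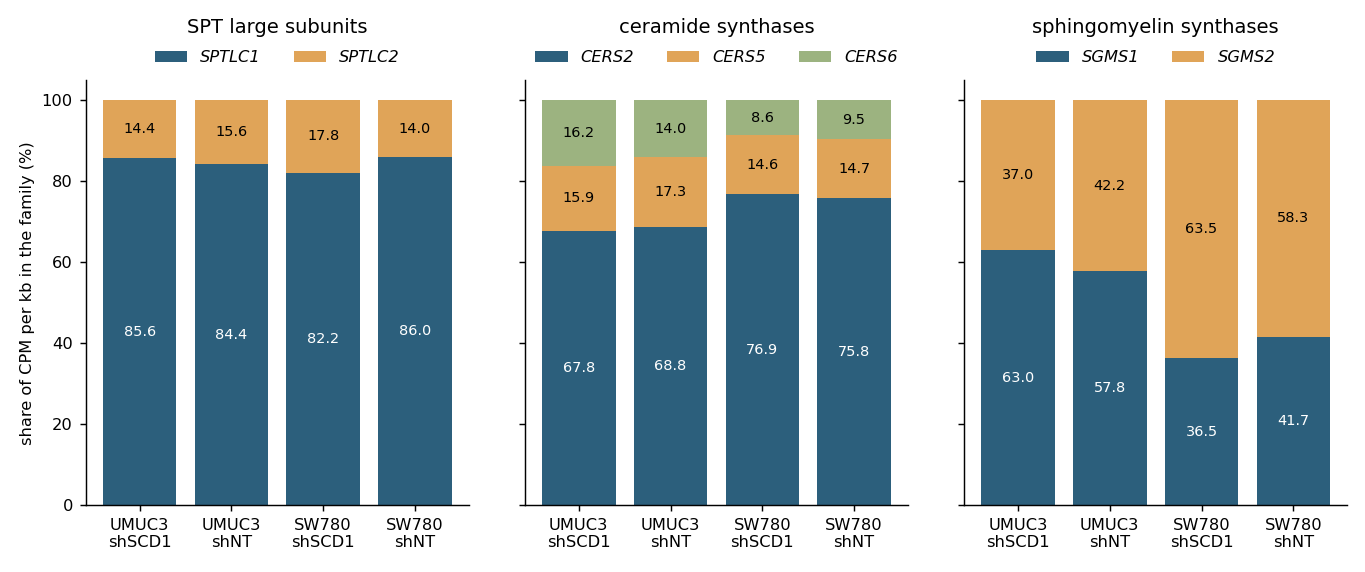
Share (%) of each gene in the summed CPM per kilobase of principal transcript of its family, in the shSCD1 and shNT libraries of both lines, for the large subunits of serine palmitoyltransferase (SPT), the 3 ceramide synthases and the sphingomyelin synthases. With these lengths SGMS1 is the larger share in UMUC3 and the smaller one in SW780, and CERS2 holds more than 60% in all 4 libraries.

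Of the other genes of dihydroceramide and ceramide synthesis, 1 of 3 was higher and 1 lower by interval in shSCD1 of UMUC3, and 1 of 4 higher and 1 lower in shSCD1 of SW780. Over all genes the shares were 35.9% and 29.6% in UMUC3 and 28.0% and 29.8% in SW780. CERS1, the ceramide synthase that prefers stearoyl-CoA, a substrate of SCD1, had 6.15 CPM (200 reads) in shSCD1 and 3.99 CPM (91 reads) in shNT of UMUC3, 1.54-fold higher (1.20 to 2.00). In SW780 it had 1.84 CPM in shSCD1 and 2.64 CPM in shNT, with an interval that held 1. CERS1 was low in every library, so its fold rests on few reads. FA2H, which hydroxylates the fatty acyl chain of sphingolipids, had 5.40 CPM in shSCD1 and 6.37 CPM in shNT of SW780, a log2 ratio of -0.20 within counting error. The gene counted as lower in SW780 was DEGS2, with 0.235 CPM (6 reads) in shSCD1 and 1.23 CPM (42 reads) in shNT. Its level was 5.25-fold lower in shSCD1 (2.22 to 15.1). DEGS2 passed the filter only through the shNT library of SW780 and was named after its values were seen. It did not reach 1 CPM in UMUC3.

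DEGS1 encodes the desaturase that converts dihydroceramide into ceramide and lies on the plus strand of chromosome 1 (chr1:224175756-224193441). It had 43.9 CPM (1427 reads) in shSCD1 and 30.3 CPM (691 reads) in shNT of UMUC3, 1.45-fold higher (1.32 to 1.59). The SW780 libraries held 81.3 CPM (2077 reads) in shSCD1 and 64.6 CPM (2201 reads) in shNT, 1.26-fold higher (1.19 to 1.34). DEGS1 was thus higher in the knockdown library of both lines, above 87.5% of genes in UMUC3 and 87.6% in SW780. Its log2 fold was larger in UMUC3 than in SW780 by 0.20 (0.04 to 0.36), counting error only. Its level in UMUC3 was 0.539 times that in SW780 between the shSCD1 libraries and 0.469 times between the shNT libraries, with CPM over the genes of each table.

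**Figure D4:**
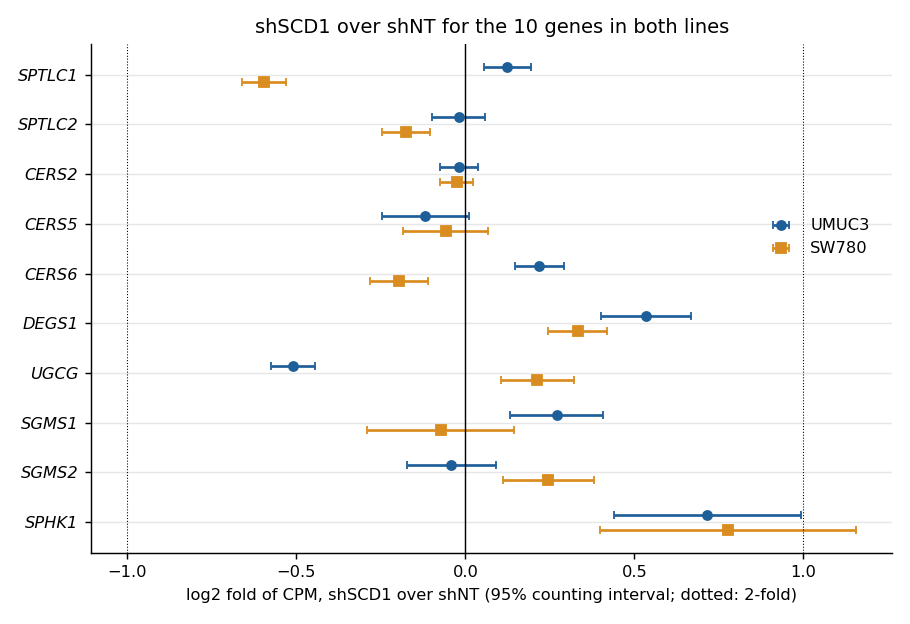
log2 fold of CPM, shSCD1 over shNT, of the 10 genes in UMUC3 (circles) and SW780 (squares), with 95% counting intervals; dotted lines mark 2-fold. DEGS1 and SPHK1 lie to the right of 0 in both lines, while SPTLC1, CERS6 and UGCG lie on opposite sides of 0 in the lines.

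UGCG encodes glucosylceramide synthase, the entry point of most glycosphingolipids, and lies on the plus strand of chromosome 9 (chr9:111896766-111935369). It had 114 CPM (3708 reads) in shSCD1 and 162 CPM (3703 reads) in shNT of UMUC3, 1.42-fold lower (1.36 to 1.49). Its SW780 level was 50.6 CPM (1293 reads) in shSCD1 and 43.7 CPM (1488 reads) in shNT, 1.16-fold higher (1.08 to 1.25). UGCG had the lowest ratio of the 10 genes in UMUC3, where 8.81% of genes lay lower, and a ratio above 80.1% of genes in SW780. Its log2 fold was lower in UMUC3 than in SW780 by a difference of -0.72 (-0.85 to -0.60), counting error only. The UMUC3 level was 2.25 times the SW780 level between shSCD1 libraries and 3.72 times between shNT libraries, so the lines lay closer in UGCG in the knockdown libraries.

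Of 8 other glycosphingolipid synthesis genes, 6 were higher and 2 lower by interval in shSCD1 of UMUC3, with a median log2 ratio of 0.61. All genes had 35.9% higher, 29.6% lower and a median of 0.04 in UMUC3. In SW780, 5 were higher and 3 lower, with a median of 0.31, where all genes had 28.0% higher, 29.8% lower and a median of -0.01. UGT8, which makes galactosylceramide from ceramide, had 51.9 CPM in shSCD1 and 14.9 CPM in shNT of UMUC3, 3.48-fold higher (3.09 to 3.92). In SW780 UGT8 had 7.98 CPM in shSCD1 and 5.34 CPM in shNT, a log2 ratio of 0.50 (fold interval 1.22 to 1.84). UGT8 was the 1 listed gene past the 2-fold rule upwards in UMUC3, where 2.47% of all genes were. ST3GAL5, the sialyltransferase that makes the simplest common ganglioside from lactosylceramide, had 3.07 CPM (100 reads) in shSCD1 and 15.2 CPM (346 reads) in shNT of UMUC3, 4.93-fold lower (3.94 to 6.23). In SW780 ST3GAL5 had 30.8 CPM (786 reads) in shSCD1 and 61.4 CPM (2094 reads) in shNT, 2.00-fold lower (1.84 to 2.17), with a log2 ratio of -0.97 that just missed the rule. ST3GAL5 was thus lower in the knockdown library of both lines. The lactosylceramide synthases B4GALT5 and B4GALT6 and the ganglioside enzyme B4GALNT1, named after their values were seen, were higher in both lines. Over all genes kept in both lines, 10.7% were higher in both and 20.1% went in opposite directions by interval. Of the same list, A4GALT and GLTP were higher in UMUC3 and lower in SW780. ST8SIA1 was lower in UMUC3 (0.154 CPM in shSCD1, 1.01 CPM in shNT) and higher in SW780 (1.84 and 0.792 CPM). It passed the filter in each line only through its higher library. B4GALT5 had 173 CPM in shSCD1 and 93.3 CPM in shNT of UMUC3, and 211 CPM in shSCD1 and 181 CPM in shNT of SW780. B4GALT6 had 95.5 CPM in shSCD1 and 54.7 CPM in shNT of UMUC3, and 21.0 CPM in shSCD1 and 15.8 CPM in shNT of SW780. B4GALNT1 had 32.9 CPM in shSCD1 and 22.1 CPM in shNT of UMUC3, and 8.26 CPM in shSCD1 and 5.19 CPM in shNT of SW780.

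Of 11 genes of glycosphingolipid breakdown, 2 were higher and 4 lower by interval in shSCD1 of UMUC3, and 4 higher and 4 lower in shSCD1 of SW780. The shares of all genes were 35.9% higher and 29.6% lower in UMUC3, and 28.0% higher and 29.8% lower in SW780. GM2A, a lysosomal cofactor of ganglioside breakdown, had 53.9 CPM in shSCD1 and 33.6 CPM in shNT of UMUC3, 1.60-fold higher (1.47 to 1.75). In SW780 it had 91.0 CPM in shSCD1 and 116 CPM in shNT, 1.28-fold lower (1.22 to 1.35). GM2A, like SPTLC1 and CERS6, was higher in the knockdown library of UMUC3 and lower in that of SW780.

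SGMS1 and SGMS2 encode the sphingomyelin synthases, SGMS1 of the Golgi and SGMS2 mainly of the plasma membrane. SGMS1 (chr10:50305586-50625163, minus strand) had 36.3 CPM (1181 reads) in shSCD1 and 30.1 CPM (687 reads) in shNT of UMUC3, 1.21-fold higher (1.10 to 1.33). The SW780 libraries held 11.7 CPM (300 reads) in shSCD1 and 12.4 CPM (421 reads) in shNT, a fold of 0.951 (0.817 to 1.11). SGMS1 thus differed beyond counting error in UMUC3 alone, and the difference between the lines in its log2 fold was 0.34 (0.09 to 0.60). SGMS2 (chr4:107824563-107915047, plus strand) had 35.0 CPM in shSCD1 and 36.1 CPM in shNT of UMUC3, a fold of 0.971 (0.887 to 1.06). Its SW780 level was 33.6 CPM in shSCD1 and 28.4 CPM in shNT, 1.19-fold higher (1.08 to 1.30). The synthase with the higher ratio was therefore SGMS1 in UMUC3 and SGMS2 in SW780, with a difference between the lines for SGMS2 of -0.29 (-0.47 to -0.10). Per kilobase, SGMS1 made up 63.0% (61.1 to 64.9) of the pair in shSCD1 and 57.8% (55.4 to 60.3) in shNT of UMUC3. In SW780 it made up 36.5% (33.4 to 39.5) in shSCD1 and 41.7% (38.9 to 44.5) in shNT. With this length SGMS1 was the larger partner in UMUC3 and the smaller in SW780. Its share was higher in shSCD1 of UMUC3, with intervals that did not overlap, and lower in shSCD1 of SW780, with intervals that overlapped. Overlap alone does not show that the SW780 shares were equal, and the difference between them was not tested. With the union of exons as length the shares were 55.2% in shSCD1 and 49.8% in shNT of UMUC3, so the order of the pair in the UMUC3 shNT library depends on the length used.

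Of the sphingomyelinases, which return sphingomyelin to ceramide, 1 of 3 was higher and 1 lower by interval in shSCD1 of UMUC3, and 3 of 4 were higher and 0 lower in shSCD1 of SW780. Among all genes 35.9% were higher and 29.6% lower in UMUC3, and 28.0% and 29.8% in SW780. SMPD3, counted as higher in SW780 (1.02 CPM in shSCD1 and 0.411 CPM in shNT), passed the filter only through its higher library. SMPD1, the lysosomal acid sphingomyelinase, had 7.34 CPM (239 reads) in shSCD1 and 12.4 CPM (283 reads) in shNT of UMUC3, 1.69-fold lower (1.42 to 2.01). In SW780 it had 11.7 CPM (300 reads) in shSCD1 and 7.22 CPM (246 reads) in shNT, 1.63-fold higher (1.37 to 1.93). SMPD1 had the widest gap between the lines of the genes named by the rule stated below. CERK, which phosphorylates ceramide, had 51.4 CPM in shSCD1 and 40.0 CPM in shNT of UMUC3, 1.29-fold higher (1.19 to 1.40). In SW780 CERK had 23.8 CPM in shSCD1 and 15.4 CPM in shNT, 1.54-fold higher (1.37 to 1.73). CERK was higher in both lines. Of the 4 genes of ceramide transport and phosphorylation, 1 was higher and 1 lower by interval in UMUC3 (all genes 35.9% and 29.6%), and 2 were higher and 2 lower in SW780 (28.0% and 29.8%).

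SPHK1 encodes a kinase that phosphorylates sphingosine to sphingosine 1-phosphate, and lies on the plus strand of chromosome 17 (chr17:76376584-76387860). It had 11.2 CPM (365 reads) in shSCD1 and 6.84 CPM (156 reads) in shNT of UMUC3, 1.64-fold higher (1.36 to 1.99). The SW780 libraries held 5.32 CPM (136 reads) in shSCD1 and 3.11 CPM (106 reads) in shNT, 1.71-fold higher (1.32 to 2.23). SPHK1 had the highest ratio of the 10 genes in both lines and the fewest reads in all 4 libraries, so its intervals were the widest. Its ratio lay above 91.5% of genes in UMUC3 and 95.5% in SW780. The difference between the lines in its log2 fold was -0.06, with an interval from -0.52 to 0.39 that does not exclude a sizeable difference in either direction.

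The other genes of sphingosine 1-phosphate encode its makers, breakers, exporter and receptors. Of 8 with at least 1 CPM in UMUC3, 6 were higher and 1 lower by interval in shSCD1, with a median log2 ratio of 0.36, where 35.9% of all genes were higher and 29.6% lower. Of 9 in SW780, 1 was higher and 5 lower in shSCD1, with a median of -0.17, where 28.0% of all genes were higher and 29.8% lower. Opposite directions in the lines were shown by 20.1% of all genes, and a difference between the lines in this group was not tested. In UMUC3, SGPP2 and S1PR2 passed the filter only through the library in which each was high, as did SPNS2 in SW780. SGPP2 had 1.20 and 0.351 CPM, S1PR2 2.37 and 0.920 CPM, and SPNS2 0.783 and 2.08 CPM in shSCD1 and shNT. The counts and medians of this group are thus a description only. SGPL1, the lyase that ends the pathway by cleaving sphingosine 1-phosphate, had 125 CPM in shSCD1 and 96.9 CPM in shNT of UMUC3, 1.29-fold higher (1.22 to 1.36). Its SW780 level was 113 CPM in shSCD1 and 134 CPM in shNT, 1.18-fold lower (1.13 to 1.24). ALDH3A2, which oxidises the aldehyde that the lyase releases, had 73.4 CPM in shSCD1 and 60.0 CPM in shNT of UMUC3, and 150 CPM in shSCD1 and 209 CPM in shNT of SW780. SGPL1 and ALDH3A2, which act in sequence, were both higher in shSCD1 of UMUC3 and both lower in shSCD1 of SW780. Of the ceramidases, which release sphingosine from ceramide, 1 of 4 was higher and 1 lower by interval in UMUC3 (all genes 35.9% and 29.6%), and 0 of 4 higher and 2 lower in SW780 (28.0% and 29.8%). ACER2, the Golgi ceramidase, had 11.0 CPM in shSCD1 and 21.5 CPM in shNT of SW780, 1.96-fold lower (1.71 to 2.26). In UMUC3 ACER2 stood at 1.48 CPM in shSCD1 and 1.23 CPM in shNT, with an interval that held 1. ACER3, an alkaline ceramidase, had 70.3 CPM in shSCD1 and 55.8 CPM in shNT of UMUC3, 1.26-fold higher, and 66.9 CPM in shSCD1 and 65.7 CPM in shNT of SW780.

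**Figure D5:**
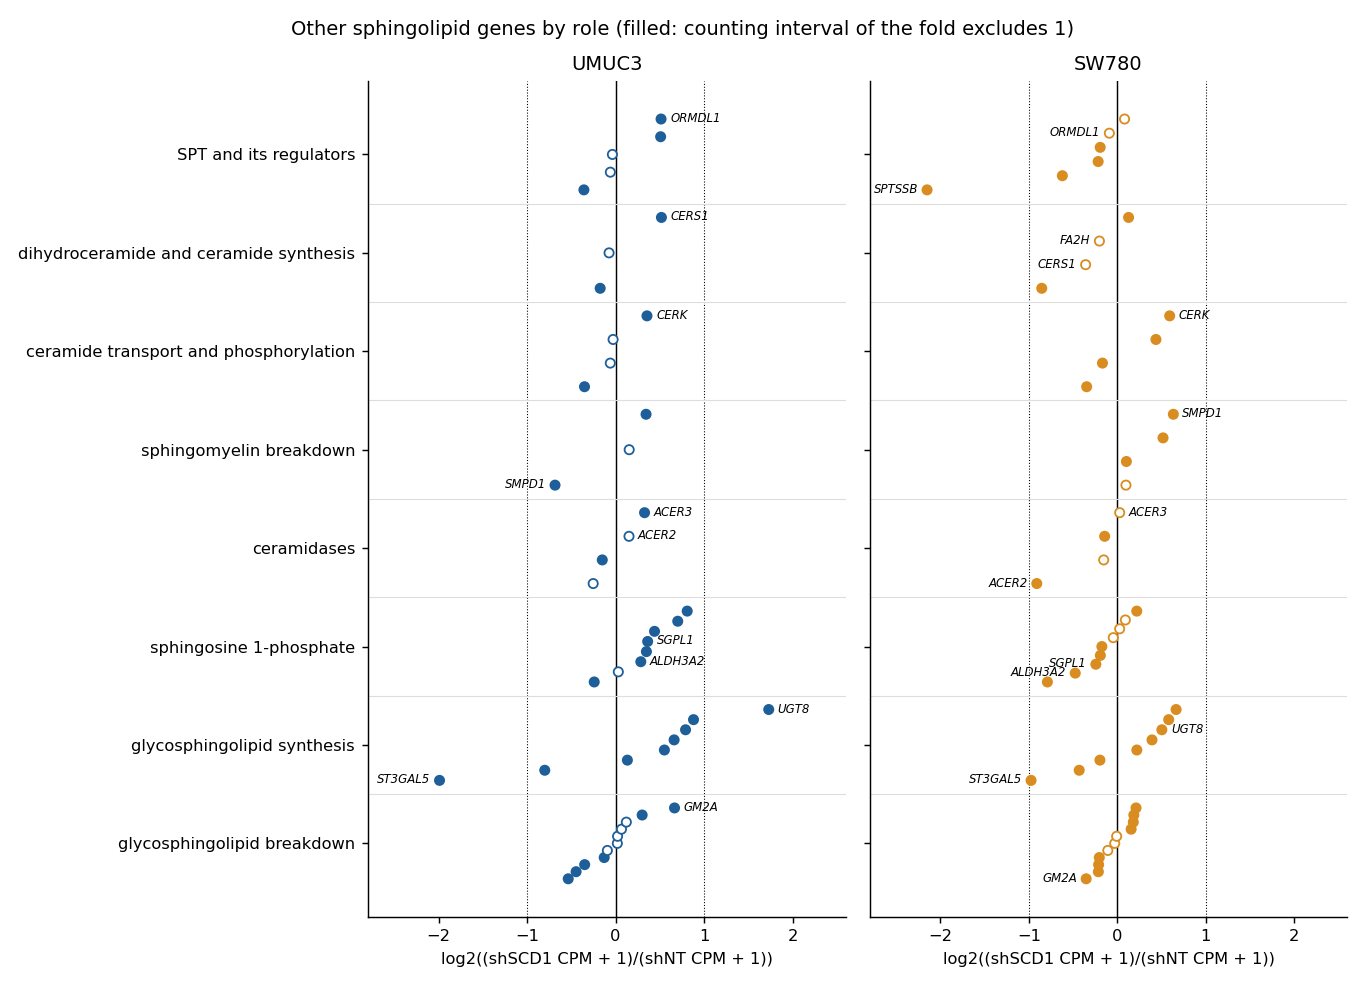
log2((shSCD1 CPM + 1)/(shNT CPM + 1)) of the other sphingolipid genes with at least 1 CPM, by role, in UMUC3 (left) and SW780 (right); filled points have a 95% counting interval of the fold that excludes 1, and dotted lines mark the 2-fold rule. UGT8 (1.73) and ST3GAL5 (-1.99) lie outside the dotted lines in UMUC3, and SPTSSB (-2.15) in SW780.

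Over all 55 other sphingolipid genes listed, 46 passed the 1 CPM filter in UMUC3, of which 20 were higher and 12 lower by interval in shSCD1, where 35.9% of all genes were higher and 29.6% lower. In SW780, 50 passed, of which 16 were higher and 21 lower, where 28.0% and 29.8% of all genes were. Their median log2 ratio was 0.09 in UMUC3, beside 0.04 for all genes, and -0.10 in SW780, beside -0.01 for all genes. The 2-fold rule was passed upwards by 1 and downwards by 1 of them in UMUC3, where 2.47% and 2.18% of all genes passed. In SW780, 0 passed upwards and 1 downwards, where 1.48% and 1.06% of all genes did. A gene that passed the filter through the library in which it is high had to differ, so these counts are a description only. Of 44 genes that passed in both lines, 8 were higher in both (ARSA, B4GALNT1, B4GALT5, B4GALT6, CERK, S1PR3, SMPD4 and UGT8) and 4 lower in both (ASAH1, ORMDL2, SAMD8 and ST3GAL5). Another 6 were higher in UMUC3 and lower in SW780, and 5 were the reverse. Of all 11152 genes that passed in both lines, 10.7% were higher in both, 10.4% lower in both and 20.1% in opposite directions. Of the 10 enzymes themselves, 2 were higher in both lines, 0 lower in both and 3 in opposite directions.

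By level per kilobase of principal transcript, CERS2 came first and SPTLC1 second of the 10 genes in every library, and SPHK1 last. CERS2 stood at 71.7 CPM per kilobase in shSCD1 and 72.6 in shNT of UMUC3, and at 90.5 in shSCD1 and 92.1 in shNT of SW780. SPTLC1 stood at 70.4 in shSCD1 and 64.6 in shNT of UMUC3, and at 59.8 in shSCD1 and 90.3 in shNT of SW780. CERS2 and SPTLC1 did not differ beyond counting error in UMUC3 shSCD1 (ratio 1.02, interval 0.979 to 1.06) or in SW780 shNT (1.02, 0.986 to 1.05). In SW780 shSCD1 CERS2 stood 1.51 times above SPTLC1 (1.45 to 1.58). The third place was held by UGCG in UMUC3, at 28.4 CPM per kilobase in shSCD1 and 40.5 in shNT, and by DEGS1 in SW780, at 38.7 in shSCD1 and 30.7 in shNT. DEGS1 held rank 4 in shSCD1 and rank 6 in shNT of UMUC3. With the union of exons as length CERS2 stayed first and SPHK1 last in every library, but SPTLC1 was second only in SW780 shNT. On that length SPTLC1 stood at 20.6 in shSCD1 and 18.9 in shNT of UMUC3, under UGCG at 24.7 in shSCD1 and 35.2 in shNT. In SW780 SPTLC1 then stood at 17.5 in shSCD1 and 26.4 in shNT, beside DEGS1 at 32.3 in shSCD1 and 25.7 in shNT. SPHK1 stood at 5.25 CPM per kilobase in shSCD1 and 3.20 in shNT of UMUC3, and at 2.49 in shSCD1 and 1.45 in shNT of SW780. The neighbours CERS6 and CERS5 and the neighbours SGMS2 and SPHK1 in UMUC3 shSCD1, CERS6 and DEGS1 in UMUC3 shNT, SPTLC2 and UGCG in SW780 shSCD1, and CERS6 and UGCG in SW780 shNT also did not differ beyond counting error. Levels compare libraries normalised within separate tables only through the totals of each table.

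Taking the lines as the only replicates, with cell line as a block over the 12654 genes fitted, edgeR's quasi-likelihood test with Benjamini-Hochberg adjustment called 0 genes at an adjusted p of 0.05. At an unadjusted p under 0.05 that test had 397 of the 12654 genes, and DESeq2 had 322. At an adjusted p of 0.05 DESeq2 had 27 genes. DEGS1 had a blocked log2 fold of 0.42 with an edgeR p of 0.0462 and an adjusted p of 0.979, higher in shSCD1 in 2 of 2 lines, and a DESeq2 p of 0.0722. SPHK1 had a blocked log2 fold of 0.74 with an edgeR p of 0.0703 and an adjusted p of 0.979, higher in 2 of 2 lines, and a DESeq2 p of 0.162. The unadjusted p of DEGS1 thus lay under 0.05 in edgeR but not in DESeq2. None of the 10 genes was called by either tool, with edgeR adjusted p between 0.979 and 1.00, in a design whose replicates are different cell lines.

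In the authors' deposited table, the shrunken log2 fold changes (GFOLD values) of SPHK1 were 0.31 in UMUC3 and 0.35 in SW780, and those of DEGS1 were 0.30 and 0.23. For UGCG the authors' deposited table gave -0.51 in UMUC3 and 0.09 in SW780. For SPTLC1 the authors' deposited table gave 0 in UMUC3 and -0.51 in SW780. The authors' log2 fold change of SPTLC1 in UMUC3, before shrinkage, was 0.04, where the log2 ratio above was 0.12. Whether SPTLC1 counts as higher in UMUC3 thus depends on the scaling and margin used. The authors' deposited table scales the UMUC3 libraries slightly differently, with a median over all genes of -0.04. On that scale CERS2 (-0.03), SPTLC2 (-0.01) and CERS5 (-0.05) had GFOLD values just under 0 in UMUC3 in the authors' deposited table, where the intervals above held 1.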

How the data were processed

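RNA from 4 libraries of human bladder cancer lines was sequenced, 1 library per group, so p-values within a line could not be had. Genome build hg38 is given per the submitters' processing notes, and for the aligner, counter, annotation and strand setting nothing is stated in the labels or headers. The authors deposited 1 table per line made with GFOLD, per the file headers. Its columns headed RPKM hold a signal without gene length: in the deposited values, reads were scaled to the same total in both libraries of a table. Whole reads were recovered by dividing by the value of 1 read: 100% of values up to 20 reads and at least 99.9% of all values came out whole within 0.1 reads. The deposited log2 fold changes and the authors' empirical FDR, a column equal to 1 for every gene, came with them. The log2 values served as an alternative and the FDR was not used.

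From the reads, CPM, log2 ratios with a pseudocount of 1 CPM, exact Clopper-Pearson intervals and Poisson intervals of CPM were computed (Python 3.11.15, scipy 1.17.1). A gene was kept in a line when its level reached 1 CPM in 1 or both libraries, and the rule of size was 2-fold on the log2 scale. Differences between lines have Wald and shares delta-method intervals. Lengths and positions came from GENCODE 29. The test over both lines used edgeR 4.0.16 and DESeq2 1.42.0 on the recovered reads, and the scripts were tested on simulated data. Gene names were blank in 17423 of 30148 and 5009 of 17752 rows and were filled from the gene identifier, with 177 and 16 left unmatched.

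The members, gene lists and rules were chosen with earlier results of these data known. Named were all 10 members, SCD and, of the 55 other genes, each gene past the 2-fold rule and the gene of largest ratio in each role and line among those with at least 5 CPM. Further genes were named after their values were seen. Alternatives changed the pseudocount, scaling, filter, rule of size and length.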

Additional observations from a re-analysis of the deposited data

Results flagged for a closer look

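For 7 of the genes named by the rule above, the log2 ratios of the lines lay on opposite sides of 0 with counting intervals that excluded 1 in each line. With 1 library per group, the difference between the lines was not tested in any of them. The UMUC3 ratio less the SW780 ratio was 0.71 for SPTLC1 (0.12 and -0.59), 0.41 for CERS6 (0.22 and -0.19) and -0.72 for UGCG (-0.51 and 0.21). It was 0.76 for ALDH3A2 (0.29 and -0.48), 1.02 for GM2A (0.67 and -0.35), 0.61 for SGPL1 (0.36 and -0.24) and -1.32 for SMPD1 (-0.68 and 0.63). Of all 11152 genes kept in both lines, 20.1% had opposite directions by the same count.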

How the results depend on the processing

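The 10 genes had 0 past the 2-fold rule in both lines under every pseudocount, scaling and filter tried. The 1.5-fold rule gave 1 in UMUC3 and 2 in SW780. Of the other sphingolipid genes, 2 passed the 2-fold rule in UMUC3 and 1 in SW780. With a pseudocount of 0.1 CPM the numbers were 5 (3 higher, 2 lower) and 5 (2 higher, 3 lower), with the authors' log2 fold change likewise 5 and 5, and with the 1.5-fold rule 10 (7 higher, 3 lower) and 9 (3 higher, 6 lower). The member medians ran from -0.03 to 0.08 in UMUC3, under 0 only on the authors' scaling, and stayed between -0.04 and -0.03 in SW780. All 10 genes kept the sign of their ratio in SW780 and 8 in UMUC3; the exceptions, SPTLC2 and CERS2, lay between -0.10 and 0.01. The correction for GC content and length and the union-of-exons lengths were chosen after seeing the data. The shSCD1 and shNT libraries of a line were paired through the cell line block of the fit over both lines. Low genes such as SPHK1, CERS1 and ACER2 are limited by depth.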
